A study of Mus musculus with 2 samples.

Results

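Calcium entry and the potassium channels that sustain it were read from 10 genes: the endoplasmic reticulum calcium sensors Stim1 and Stim2, the calcium channel subunits Orai1, Orai2 and Orai3, the potassium channels Kcna3 and Kcnn4, and the inositol trisphosphate receptors Itpr1, Itpr2 and Itpr3. They were chosen by gene name, as the non-control probes that the scanner files assign to these names. This gave 16 probes of 55676 in all, and each of the 10 genes had a probe well above background on both arrays, among 23492 gene names so measured. The arrays held RNA of regulatory T (Treg) cells, CD4 T cells that restrain immune responses, from 5-week-old mice of the genotypes wild-type and Nr4a-TKO, with 1 array for each. The cells were lysed directly after sorting, and the labels do not give the sorting markers, the number or sex of the mice, or how the Nr4a-TKO alleles were made. Nothing beyond age and cell type is stated as shared by both groups.

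When the T cell receptor is engaged, phospholipase C gamma makes inositol trisphosphate, whose receptors release calcium from the endoplasmic reticulum. The STIM proteins sense the emptied store and open ORAI channels in the plasma membrane, and the calcium that enters activates calcineurin and through it the NFAT transcription factors. Potassium leaving through Kv1.3 (Kcna3) and KCa3.1 (Kcnn4) keeps the membrane negative, which maintains the drive for calcium to enter. In T cells KCa3.1 is known as the channel whose amount rises with activation.

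Because Kcnn4 was the 1 gene of the 10 past 2-fold, the stretch of its mRNA that the array read is shown first, with that of the Stim1 probes, which overlap. Each line gives the first 30 of 60 probe bases as the scanner file lists them, and capitals mark bases that both Stim1 probes share. The Stim1 probes have 51 bases in common, so they are not separate readings of the transcript.
Kcnn4 probe: gccacatagctccacatgaactcacagaag
Stim1 brighter probe: agggctcttGTGGAGCCCTGGGCAAGGATG
Stim1 dimmer probe: GTGGAGCCCTGGGCAAGGATGttatatttg

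The Kcnn4 probe lies on the plus strand at chr7:25169184-25169782 (mm9, the build of the array annotation). That interval covers 599 bases for a probe of 60, so the probe joins sequence from either side of a gap in the genome. Annotation of exons, introns and UTRs on mm9 was not used here.

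With 1 array for each genotype there are no replicates, so no test between genotypes was possible and a size of 2-fold (1 on the log2 scale) was used to describe differences. Signals are the scanner's processed intensities in arbitrary units. Levels are log2 signals minus the array's 75th percentile, and differences are taken as Nr4a-TKO minus wild-type. Differences are set against 1 standard error from the scanner's own error model, typically 0.204 on the log2 scale. It covers measurement of a spot and not variation between mice. For bright probes it was near 0.204 throughout, so a difference divided by it only restates the size of the difference. The spread of a difference from repeat spots of 280 probes was smaller, at 0.081. Levels of different probes were not compared with each other. With bulk RNA, fewer cells of a type and less RNA per cell cannot be told apart.

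The targeted family and the labelled cell type bear on every direction below. Nr4a3 was lower by 7.04-fold on the Nr4a-TKO-labelled array, but Nr4a2 was higher by 2.54-fold and Nr4a1 differed by only 0.06, so the genotype stands as a label. All 6 Treg and CD4 T cell markers were measured on both arrays. Foxp3, which defines Treg cells, had signals of 2412 (wild-type) and 127 (Nr4a-TKO), a difference of -4.11, and Ctla4 differed by -1.20. The others, Cd3e, Cd3g, Cd4 and Il2ra, lay between -0.52 and -0.36. Xist, transcribed from the inactive X chromosome of female cells, was at least 106-fold higher on the Nr4a-TKO-labelled array. The Y-linked Ddx3y, Eif2s3y and Uty were lower there by 3.63-fold, 1.97-fold and 1.52-fold but still well above background, and Kdm5d by at least 1.78-fold. That array thus held Xist and Y-linked RNA together, and sex composition and genotype cannot be told apart. None of the 10 genes lies on a sex chromosome. Over all 23492 gene names the median difference was 0.08, with quartiles at -0.16 and 0.29.

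By a size of 2-fold, 1 of the 10 genes was lower with the Nr4a-TKO label (3.06% of all gene names were), 0 were higher (3.15% of all gene names) and 9 lay between. In either direction this is 1 of 10, where 6.21% of all gene names passed 2-fold. The 1 gene was Kcnn4. The other 9 lay between -0.29 for Stim2 and 0.39 for Kcna3, and 29.3% of all gene names were at least as far from 0 as Kcna3. The median of the 10 was -0.15 against 0.08 for all gene names, and it was -0.15 without Kcnn4. By any amount, 8 of the 10 were lower and 2 higher, where 40.4% of all gene names were lower and 59.6% higher.

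**Figure D1:**
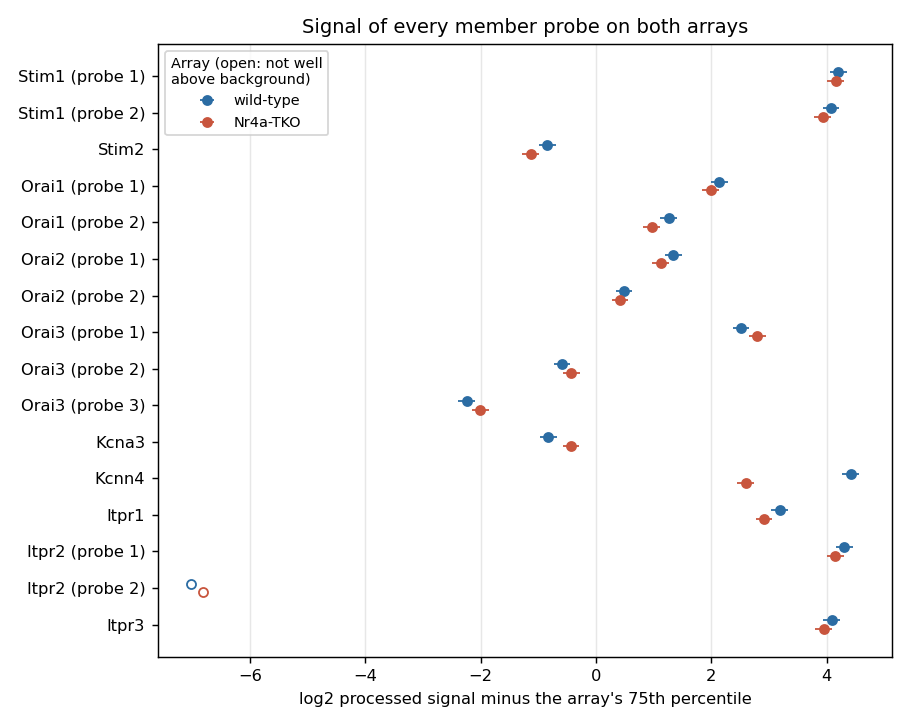
The horizontal axis gives the log2 processed signal minus the array's 75th percentile for each of the 16 probes, with wild-type in blue and Nr4a-TKO in red and bars of 1 scanner error. Only the Kcnn4 points, at 4.42 and 2.59, stand clearly apart, and the open points of the second Itpr2 probe were not well above background.

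Kcnn4 encodes KCa3.1, a potassium channel that opens when calcium bound to calmodulin rises in the cell. Its single probe gave a signal of 17764 in wild-type and 4543 on the Nr4a-TKO-labelled array. On the scaled log2 axis these were 4.42 and 2.59. The difference was -1.82 ± 0.204, or 3.54-fold lower, which is 8.94 times the scanner error. Of 23492 gene names, 189 had a lower difference, so Kcnn4 stood in the lowest 0.805% of all measured. The value rests on 1 spot per array, and no second probe of the gene was on the array.

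Markers of other cells that could carry this channel were read beside it. KCa3.1 is also the calcium-activated potassium channel of red blood cells, and of 6 erythroid and platelet markers 5 had a probe. Of these, 1 was measured on both arrays (Itga2b, at 97 and 92), Hba-a1 was well above background in wild-type only (36 against 23), and Alas2 and Pf4 stayed near background on both. The signals of the 5 summed to 161 for wild-type and 145 for Nr4a-TKO. Signals in these sums are not scaled, and the 75th percentiles of the arrays were 831 and 752. After scaling, Itga2b differed by 0.07.

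Of the other marker lists, each of 6 genes, granulocyte and mast cell markers had 2 genes measured on both arrays. Mpo gave 276 and 32, while Elane, the brightest of the list, gave 817 and 705, a difference of -0.07. A further 2, S100a8 and S100a9, were well above background in wild-type only and at least 2.50-fold and 2.89-fold lower, while Cpa3 and Fcer1a were not above it on either array. The signals of this list summed to 1280 for wild-type and 769 for Nr4a-TKO. Markers of CD8 T and NK cells summed to 4559 and 2393, with 4 measured on both arrays. Most of each sum was Nkg7, at 3310 and 1741, which differed by -0.78 at its brighter probe and -2.62 at the other. Cd8b1 differed by -0.64, Cd8a by -0.18 and Ncr1 by -0.11. Klrd1 was at least 5.97-fold lower, while Klrb1c was not above background. Markers of B cells summed to 939 and 1327, with 4 measured and Cd79b higher by 2.51-fold while Ms4a1 was not above background. Those of macrophages and dendritic cells summed to 1655 and 1914, with 3 measured and Lyz2 above background in wild-type only, and Itgax and Cd14 were not above background. The part of these cells, and of the Foxp3 difference, in the Kcnn4 difference was not tested.

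Kcna3 encodes Kv1.3, a voltage-gated potassium channel that opens on depolarization. Its single probe, on the plus strand at chr3:106840925-106840984, gave 469 in wild-type and 558 on the Nr4a-TKO-labelled array. The levels were -0.82 and -0.43. The difference of 0.39 ± 0.205, or 1.31-fold higher, was the highest of the 10, and it lay within 2 scanner errors. The 2 potassium channels of the list thus had opposite signs, with a size past 2-fold only for Kcnn4. Whether they differ from each other beyond variation between mice could not be tested.

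**Figure D2:**
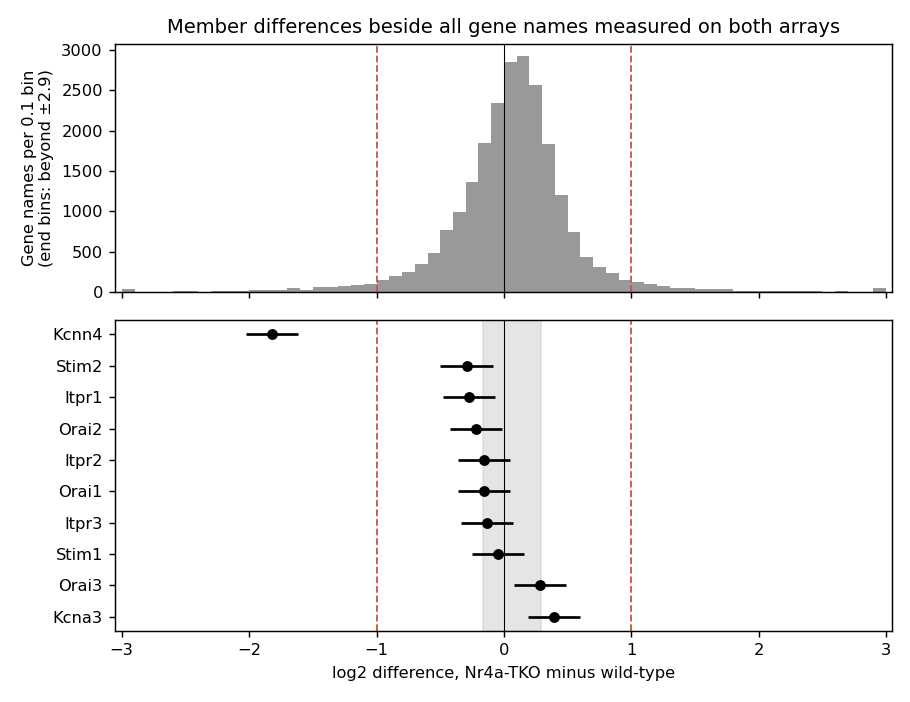
The upper panel is a histogram of the log2 difference over 23492 gene names, with more extreme values placed in the end bins. The lower panel gives the 10 genes with bars of 1 scanner error, dashed lines at 2-fold and a grey band between the quartiles of all gene names (-0.16 and 0.29). Kcnn4 at -1.82 is the only gene beyond a dashed line.

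The promoters of both potassium channel genes are shown because these channels had opposite signs. RefSeq promoters (GRCm38.p6) were found for 9 of the 10 genes, and Itpr1 had no entry. Each line gives the 250 bases before the annotated start, 5′ to 3′. For Kcnn4, at chr7:24370013-24370262 on the plus strand, capitals mark the RUNX core TGTGGT on either strand. For Kcna3, at chr3:107035912-107036161 on the plus strand, capitals mark the NFAT core GGAAA.
Kcnn4 promoter: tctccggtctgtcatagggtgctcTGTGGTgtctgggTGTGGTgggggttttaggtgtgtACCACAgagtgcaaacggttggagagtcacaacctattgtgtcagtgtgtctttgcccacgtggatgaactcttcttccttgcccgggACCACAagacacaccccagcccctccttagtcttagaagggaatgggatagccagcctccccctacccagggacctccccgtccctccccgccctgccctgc
Kcna3 promoter: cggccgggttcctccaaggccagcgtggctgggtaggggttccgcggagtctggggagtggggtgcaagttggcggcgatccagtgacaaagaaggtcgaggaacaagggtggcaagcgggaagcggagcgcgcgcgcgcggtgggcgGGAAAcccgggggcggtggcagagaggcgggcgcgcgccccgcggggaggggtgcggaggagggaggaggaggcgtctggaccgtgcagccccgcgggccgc

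4 motifs were searched on both strands of the 9 windows, and the windows shown each held matches of 1 of the 4, so no motifs overlapped there. The RUNX core TGTGGT occurred 4 times in the Kcnn4 window, from -226 to -221, -213 to -208, -190 to -185 and -102 to -97 relative to the start. Of 32851 promoters 14.0% held it at least once, and 10 of them at least 4 times. RUNX proteins bind DNA together with Foxp3 in Treg cells, but binding at these windows was not tested. The only other of the 9 windows with the core was that of Orai3, whose difference was 0.28. The response element of NR4A monomers, AAAGGTCA, was found in 0 of the 9 windows and in 1.34% of all promoters. The AP-1 site TGANTCA was found in 0 of the 9 and in 6.75% of all. The NFAT core GGAAA was found in 3 of the 9 (Orai2, Orai3 and Kcna3, the last from -102 to -98) and in 55.6% of all. The windows also differed in base composition, with 6 CpG dinucleotides in Kcnn4 and 31 in Kcna3, where the median over all promoters was 6. A match describes letters in these windows only.

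The STIM sensors differed little. Stim1, the main sensor of store depletion in T cells, gave 15295 and 13410 at its brighter probe (wild-type first, as throughout), at chr7:109585303-109585362. The difference was -0.05 ± 0.204, and at the overlapping probe, with 13984 and 11464, it was -0.14. Stim2, which responds to smaller falls in store calcium, gave 464 and 343 at chr5:54509929-54509988. Its levels were -0.84 and -1.13, and the difference of -0.29 was 1.41 times its scanner error. For both sensors the Nr4a-TKO-labelled array was the lower, by less than 2 scanner errors.

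The ORAI channel subunits did not share a sign. Orai1, which forms the pore of the main store-operated channel of T cells, gave 3668 and 2984 at its brighter probe, at chr5:123479844-123479903, and 1989 and 1472 at the other. The differences were -0.15 and -0.29. Orai2, which can join Orai1 in mixed channels, lies on the minus strand, and gave 2103 and 1639 at its brighter probe, at chr5:136623383-136623442, and 1163 and 1004 at the other. The differences were -0.22 and -0.07, so both probes of both genes were lower on the Nr4a-TKO-labelled array, within 2 scanner errors.

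Orai3, the subunit found in mammals alone, was higher. Its 3 probes gave 4745 and 5233 at chr7:134918459-134918518, 553 and 561 at another position, and 175 and 188 at the last. After scaling, the differences were 0.28, 0.16 and 0.24. The 3 probes therefore had 1 sign, with none past 2 scanner errors. Across the 4 genes with several measured probes (Stim1, Orai1, Orai2 and Orai3), all 4 had the same sign at each of their probes, and probes of 1 gene lay at most 0.15 apart.

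The inositol trisphosphate receptors, which release calcium from the store, were all slightly lower. Itpr1 gave 7566 and 5667 at chr6:108501025-108501084, a difference of -0.27 ± 0.204. Itpr2 gave 16452 and 13379 on the minus strand at chr6:146060005-146060064, a difference of -0.15. A second Itpr2 probe, drawn from a different transcript at chr6:146369944-146371234, was not well above background on either array. Itpr3, at chr17:27259102-27259161, differed by -0.14.

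The Itpr3 probe was printed 10 times on each array and shows how precisely a single value is read. In wild-type the 10 spots gave signals from 13788 to 14668 with a median of 14028. In the Nr4a-TKO-labelled array they gave 11293 to 12058 with a median of 11655, and the spots of the arrays did not overlap. Scaled levels ran from 4.05 to 4.14 in wild-type and from 3.91 to 4.003 in the other array. The 10 differences at matched positions ran from -0.17 to -0.07, with an SD of 0.032 between spots, and all 10 were below 0. A difference of this size is thus larger than the spread between spots, yet below the shift of -0.27 that spike-in controls would make as the centre. Spots of 1 array share its RNA and are not replicates of a genotype.

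**Figure D3:**
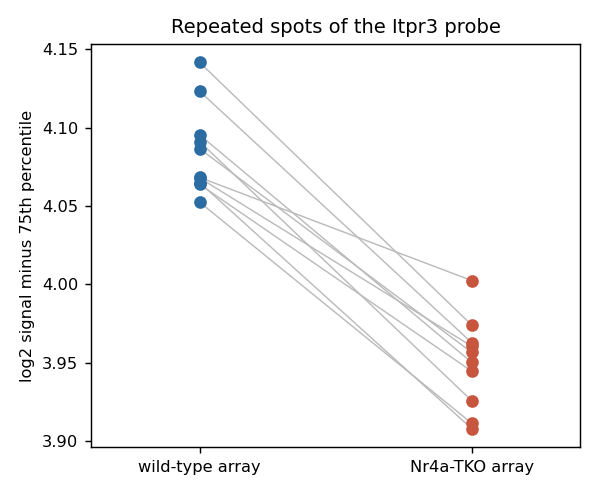
Each point is 1 of 10 spots of the Itpr3 probe, as log2 signal minus the array's 75th percentile, and lines join spots at the same position of the arrays. The wild-type points lie between 4.05 and 4.14 and the Nr4a-TKO points between 3.91 and 4.003. The vertical axis does not start at 0.

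The direction of each of the 10 genes was the same under all 10 alternatives of scaling, background correction, probe rule and filter that were tried. Some of these could change little. The filter rules left all 10 values as they were, and the probe mean moved only genes with several measured probes. The deposited table differs from the processed signals only by a constant on each array. Kcnn4 stayed between 3.54-fold and 4.28-fold lower, and none of the other 9 came past 2-fold in any of them. The spike-in centre was the median of only 9 control probes, at 0.27, and their own differences ran from -0.0063 to 0.32. With spike-in controls as the centre, the median of all gene names moved by -0.27. Orai3 then came to 0.01 and Kcna3 to 0.12, while Stim1 came to -0.32. For Orai3 the change of centre was thus nearly as large as its difference of 0.28.

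**Figure D4:**
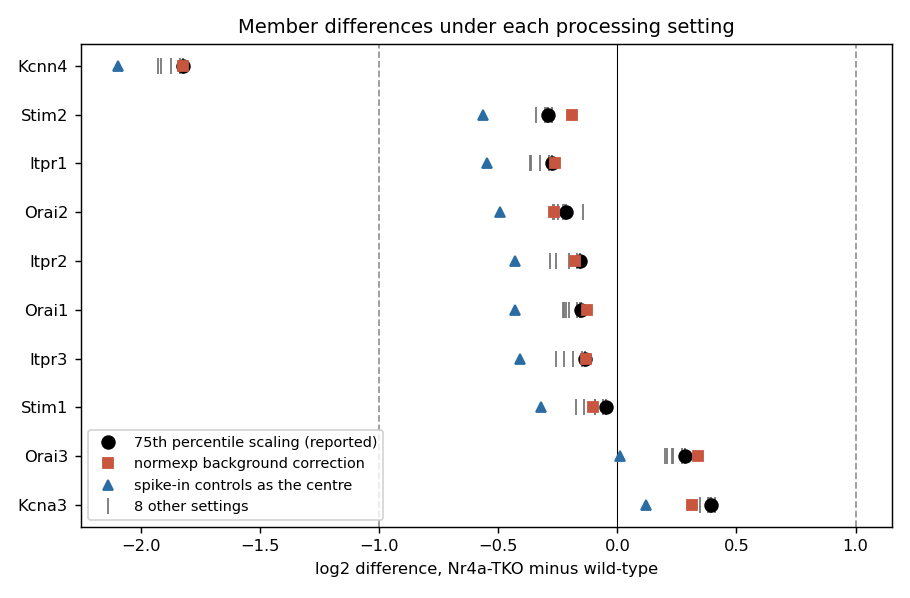
The horizontal axis gives the log2 difference of each gene under 11 settings. Black circles are the reported values, red squares normexp background correction, blue triangles spike-in controls as the centre, and grey ticks the others. Kcnn4 lies beyond the dashed 2-fold line in each setting, and spike-in centring moves Orai3 to 0.01.

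Genes around these channels were described from 4 lists of 85 genes, of which 68 were measured on both arrays. Of the 68, 4 were at least 2-fold higher (5.88%, against 3.15% of all gene names) and 2 at least 2-fold lower (2.94%, against 3.06%). Their median was 0.02, against 0.08 for all gene names. A further 12 stayed near background on both arrays, and 5 were above it on 1 array only (3 on wild-type, 2 on Nr4a-TKO), none with a bound past 2-fold.

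Of 22 calcium sensor and calcineurin-NFAT genes, 20 were measured, their median was 0.11, and 2 were lower and 0 higher past 2-fold. Ppp3ca, the alpha catalytic subunit of calcineurin, gave 2794 and 683 at chr3:136598682-136598741, a difference of -1.89 ± 0.205 or 3.71-fold lower, at its single probe. Of the other catalytic subunit genes, Ppp3cb differed by 0.02 and Ppp3cc by 0.33 at its brighter probe and 0.91 at the other. The regulatory subunit gene Ppp3r1 differed by 0.11. Camk4, a calmodulin-dependent kinase, gave 4762 and 1563 at its brightest probe, 2.76-fold lower, and its other 2 probes differed by -1.004 and -1.09. Rcan3, a calcineurin inhibitor gene, came just short of 2-fold lower at -0.99, and passed it in 5 of 10 alternatives. The NFAT genes showed smaller differences, with Nfatc2 at 0.49, Nfatc1 at 0.24, Nfatc3 at -0.11, Nfatc4 at -0.16 and Nfat5 at -0.27. The second Nfatc1 probe had the other sign. Ppp3ca and Camk4 were thus the members of this list that resembled Kcnn4 in sign and in passing 2-fold under the reported scaling and all 10 alternatives.

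Of 22 entry and store regulators, 19 were measured, their median was 0.04, and 2 were higher and 0 lower past 2-fold. P2rx7, an ATP-gated channel that admits calcium, gave 1588 and 3343 at its brightest probe, 2.32-fold higher, and its 3 probes ran from 0.99 to 1.22. Plcg2, the phospholipase C gamma known best from B cells, gave 1573 and 2870, 2.02-fold higher, and came under 2-fold in 6 of 10 alternatives. Plcg1, the enzyme that makes inositol trisphosphate in T cells, differed by -0.62 at its brightest probe and by -0.06 at the least changed of 3. Saraf, an inhibitor of store-operated entry, gave 29259 and 15384, a difference of -0.78. Homer3, which encodes a scaffold protein, differed by -0.47.

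Of 16 pumps, exchangers and mitochondrial uptake genes, 15 were measured, their median was 0.0038, and 1 was higher and 0 lower past 2-fold. Atp2b4, a plasma membrane calcium pump, gave 135 and 324 at its brightest probe, 2.66-fold higher. Its 3 probes ran from 0.72 to 1.41, and with normexp correction its difference was 0.58. The endoplasmic reticulum pump gene Atp2a2 (-0.29) and the plasma membrane pump gene Atp2b1 (-0.29) each had a second probe of the other sign. Mcu, the pore of mitochondrial calcium uptake, differed by -0.26 and Vdac1 by 0.29.

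Of 25 other potassium channel genes, 14 were measured, their median was -0.16, and 1 was higher and 0 lower past 2-fold. Kcna6 was counted by its brighter probe, at -0.18, while its other measured probe was higher by 1.92, past 2-fold. Kcnab3, an accessory beta subunit of Kv1 channels, gave 111 and 645 at chr11:69146197-69146256, a difference of 2.68 ± 0.225 or 6.40-fold higher, and 4.05-fold with normexp correction. The beta subunit genes Kcnab1 and Kcnab2 differed by -0.76 and -0.17. Kcnk5, a background potassium channel gene, gave 414 and 672, a difference of 0.84. Kcnc1 and Kcnh2 were dim and differed by -0.76 and -0.37. The Kcnn relatives Kcnn2 and Kcnn3 stayed near background on both arrays, and Kcnn1 differed by 0.33.

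**Figure D5:**
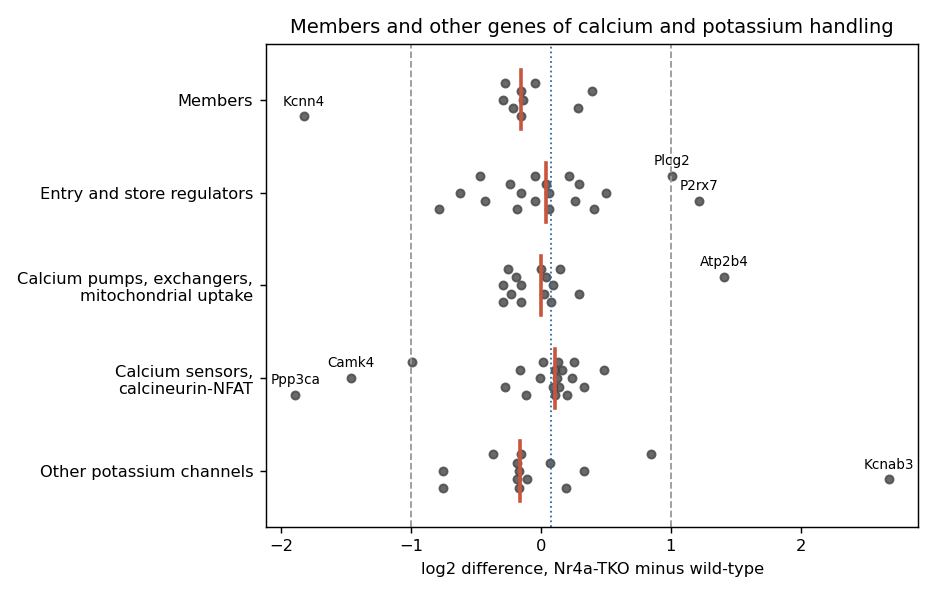
Points are genes measured on both arrays, in 5 rows for the 10 channel and sensor genes and the 4 lists, placed by log2 difference. Red bars are medians, the dotted line is the median of all gene names (0.08) and dashed lines mark 2-fold. Kcnn4 and Ppp3ca lie lowest, at -1.82 and -1.89, and Kcnab3 lies highest, at 2.68.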

How the data were processed

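The deposited spot values are intensity readings made with Agilent's Feature Extraction software (10.10.1.1), per the file headers, with spatial and multiplicative detrending on and no scaling between arrays found. A second deposited table held log2 values that differ from log2 of the processed signals by 1 constant on each array (SD 0.00029), with medians of -3.54 (wild-type) and -3.53 (Nr4a-TKO). The rule behind the constant stays unknown.

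Control and outlier spots were left out, repeat spots of a probe were averaged as log2 signals, and each array's 75th percentile over 55676 probes was subtracted. Where a gene had several probes the brightest on average stood for it, and it was counted where the scanner called it well above background on both arrays. For all-gene counts, 27592 probes were named through transcript accessions in a RefSeq table (GRCm38.p6) and 28084 kept the file's name. Per the file headers, 1 slide and 1 scan held both arrays. Their number limits the precision. A bound sets the bright array's level against the higher of the dim probe's own level and the lowest level well above background on the dim array.

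All 10 genes with each probe were named. From each list every gene past 2-fold and up to 4 others with the largest differences were named. Further list genes (the other calcineurin and NFAT genes, Kcna6, Kcnab2, Kcnn1, Kcnn2 and Kcnn3) were chosen after their values were seen. Some list and marker genes are not reported here by name, though list counts and sums include them. The members and lists were chosen with earlier results of these data known. Alternatives were normexp (offset 50), scaling on the array median or on probes well above background, quantile normalization, spike-in centring, loess (span 0.3), the deposited table, the mean over a gene's probes, dim probes kept or removed more strictly, and fold limits of 1.5 and 3. The counting step was tested on simulated data. Python 3.11.15, numpy 2.4.6, pandas 2.3.3, statsmodels 0.14.6, matplotlib 3.10.9, R 4.3.3 and limma 3.58.1 were used.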

Additional observations from a re-analysis of the deposited data

How the results depend on the processing

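The 1 gene at least 2-fold lower and the 0 genes at least 2-fold higher among the 10 were the same in all settings, including thresholds of 1.5-fold and 3-fold. Their median of -0.15 became -0.24 with quantile normalization, -0.43 with spike-in controls as the centre and -0.26 with loess. The median of all gene names moved too, to 0.02, -0.20 and 0.0026. The median of the 10 minus that of all gene names was thus -0.26, -0.23 and -0.27, against -0.23 as reported. Without Kcnn4, a setting chosen after seeing the data, the median of the others was -0.15. In the 4 lists the 4 higher and 2 lower genes became 2 higher and 2 lower with normexp, and 2 higher and 6 lower with spike-ins. Scaling on the array median or on probes well above background, quantile normalization and loess each gave 3 higher and 3 lower. The probe mean gave 3 higher and 2 lower. Without the filter on dim probes 7 were higher and 3 lower, and with the stricter filter 2 higher and 2 lower. At 1.5-fold 5 were higher and 7 lower, and at 3-fold 1 higher and 1 lower. Over all gene names, 740 were higher and 720 lower. Normexp gave 477 higher and 457 lower, spike-ins 448 higher and 1251 lower, dim probes kept 1986 higher and 1834 lower, dim probes removed more strictly 331 higher and 362 lower, a limit of 1.5-fold 1964 higher and 1728 lower, and one of 3-fold 288 higher and 283 lower. Spike-in centring cut the share of higher among these calls from 50.7% to 26.4%. Filters and thresholds move counts by construction, as does spike-in centring, which shifts every gene by -0.27. Normexp was run with an offset of 50 added to each signal, which by construction shrinks log2 differences, most at dim probes. The share of that offset in the normexp change was not tested. No paired analysis was possible because each genotype had 1 array. Signals near background limit dim probes: the scanner error of the Kcnc1 difference was 0.35, against a typical 0.204.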
